A study of Mus musculus with 12 samples.

Results

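The transcripts of 10 genes induced by the MAP kinase pathway were followed in 3 mouse melanocytic cell lines, with and without SX-682. SX-682 is an inhibitor of the chemokine receptors CXCR1 and CXCR2. All 10 genes are called feedback genes here, with Etv4 and Etv5 included as transcription factors that follow the pathway. The genes were chosen by name from the 34513 genes of the deposited count table, and all 10 were found there: the phosphatases Dusp4, Dusp5 and Dusp6, the Sprouty genes Spry1, Spry2 and Spry4, their relatives Spred1 and Spred2, and the transcription factors Etv4 and Etv5. RNA-seq was performed on cultures of Melan-A, an immortal, nontumorigenic melanocyte line, and of B16F0 and B16F10, sublines of the same mouse melanoma that are tumorigenic. Each line was sequenced without treatment (control) and after SX-682; each of the 6 groups so formed holds 2 libraries, 12 in all. The dose and duration of SX-682 for these cultures are not given in the sources used here. Each line is a single line, so a difference between lines is not a difference between normal and malignant cells in general. The labels do not say whether the 2 libraries of a group came from separate cultures, and p-values then measure only the spread between these libraries, which may be technical.

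In the MAP kinase pathway, growth factor receptors switch on RAS, which recruits the RAF kinases, and these activate MEK and then the kinase ERK. Active ERK drives the transcription of its own restraints: dual-specificity phosphatases remove the phosphates that activate it, while Sprouty and Spred proteins act further up, near the receptor and RAS. Etv4 and Etv5 are ETS-family transcription factors whose own transcription also follows ERK activity, and in melanocytes and melanoma the transcripts of these genes are widely used as a readout of the pathway. Phosphorylated ERK itself was not measured in these libraries.

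The counts of a library summed to between 48876982 and 85322092. Levels are given as CPM, a gene's share of the library's counts on a scale common to all libraries, after TMM scaling, which corrects library totals for a few very abundant genes, and levels of different genes are compared per kilobase (RPKM). A change is given as a log2 fold change with its standard error (SE), from edgeR's quasi-likelihood F-test on the 18338 genes that passed its expression filter. Its p-values are 2-sided and adjusted over all of these genes by the Benjamini-Hochberg method, and a gene was called at an adjusted p under 0.05. All 10 feedback genes passed the filter. The replicate libraries lay close together, with a biological coefficient of variation of 2.78%, so that small changes passed the threshold. With 2 libraries against 2, an exact permutation test cannot give a p under 0.333, and the calls draw on a spread that is pooled over all groups and moderated over genes.

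The identity of the lines was checked against marker genes before the feedback genes were compared. Melan-A controls held the melanocyte lineage factor Sox10 at 670 CPM, but the pigment genes Tyr and Pmel were low there, at 0.826 and 8.11 CPM, against 515 and 4512 CPM in B16F0 controls and 68.1 and 5337 CPM in B16F10 controls. All 12 melanocyte markers were above 3 counts in at least 1 library of each Melan-A group and 11 in each B16 group, but together they reached only 1605 to 1637 CPM in Melan-A controls, against 19819 to 19912 in B16F0 controls and 25625 to 25652 in B16F10 controls. The summed level of 6 fibroblast markers was 212 to 215 CPM in Melan-A controls, 19.3 to 20.3 in B16F0 controls and 8.53 to 9.32 in B16F10 controls. Of the 6, 5 were lower in each B16 line. Col1a2 went the other way, at 0.764 CPM in Melan-A controls, 2.36 in B16F0 controls and 5.14 in B16F10 controls. Markers of 3 other cell types summed to low levels in Melan-A controls, with 10.2 to 10.4 CPM for keratinocytes, 7.18 to 7.19 CPM for leukocytes and 1.45 to 1.72 CPM for endothelium, and to at most 1.24, 0.454 and 0.164 CPM in controls of either B16 line. With SX-682 the melanocyte sum stood at 1755 to 1763 CPM for Melan-A, 16961 to 17169 for B16F0 and 15753 to 16023 for B16F10, and the fibroblast sum at 220.05 CPM in both Melan-A libraries, 26.4 to 27.8 in B16F0 and 8.87 to 9.27 in B16F10. Single markers moved more than these sums: of the 6 fibroblast markers, 4 were lower and 1 higher with SX-682 in Melan-A (median log2 fold change -0.88), while Pdgfrb, the most abundant of them, was the one that was higher (0.35), and 2 were higher and none lower in B16F0, and 3 and 1 in B16F10. Of 11 melanocyte markers tested, 3 were higher and 5 lower with SX-682 in Melan-A, and 1 was higher and 10 lower in each B16 line. Of the 9 markers of the 3 other cell types that were tested, 2 were lower in Melan-A, 3 were higher in B16F0 and 1 was higher in B16F10. Over all genes tested, 23.4% to 25.5% were higher and 24.7% to 25.3% lower with SX-682, depending on the line. The part of these marker differences in the changes with SX-682 and the differences between lines given here was not tested. In bulk cultures, fewer cells of a type and less RNA per cell cannot be told apart.

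In untreated cells, all 10 feedback genes were lower in B16F0 than in Melan-A and all 10 were lower in B16F10 than in Melan-A. Of all genes tested, 40.6% were lower and 35.3% higher in B16F0 than in Melan-A, and 40.8% were lower and 33.4% higher in B16F10 than in Melan-A. The median log2 fold change of the 10 was -2.06 in B16F0 and -1.23 in B16F10, beside -0.06 and -0.10 over all genes tested. The deficit ranged in B16F0 from 1.48-fold for Dusp4 to 40.5-fold for Dusp5, and in B16F10 from 1.36-fold for Spry2 to 23.3-fold for Dusp5. Both comparisons use the same Melan-A controls.

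**Figure D1:**
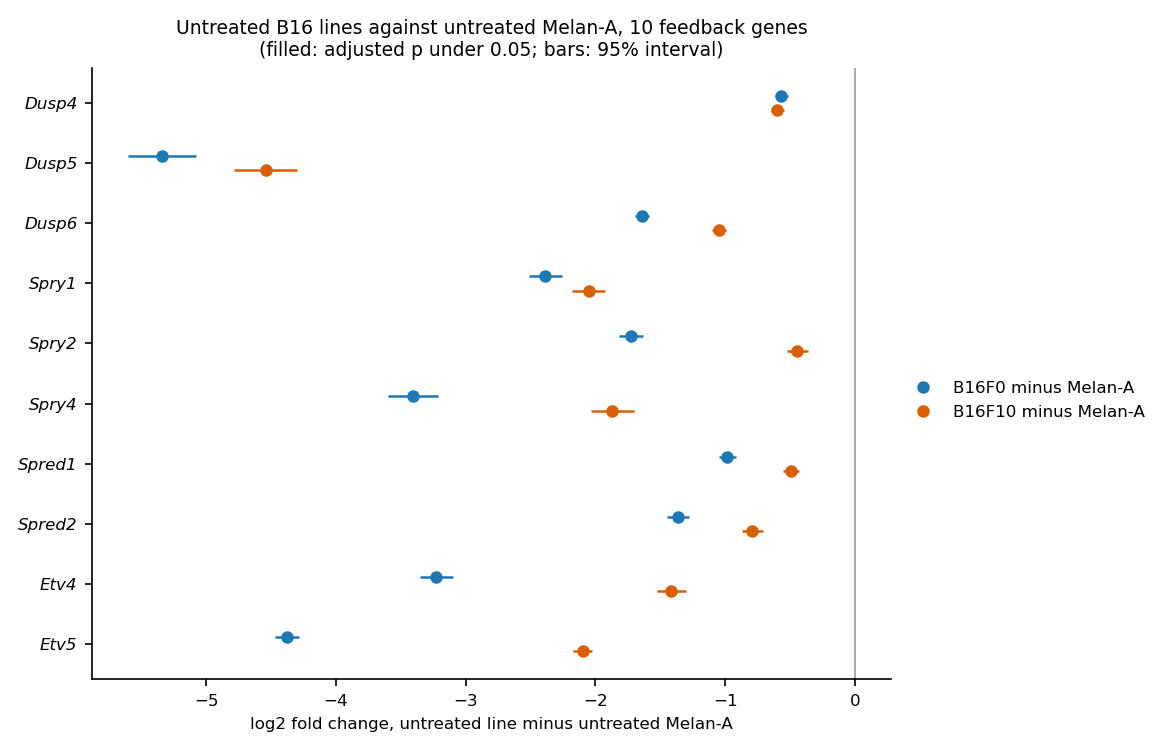
Log2 fold change of each feedback gene (rows) in untreated B16F0 (blue) and untreated B16F10 (orange) against untreated Melan-A, with 95% intervals, 2 libraries a group. All points lie left of 0, from -0.44 for Spry2 in B16F10 to -5.34 for Dusp5 in B16F0, and the B16F0 point lies further left than the B16F10 point for every gene but Dusp4.

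The 2 B16 lines also differed from each other. Without treatment, 9 of the 10 genes were higher in B16F10 than in B16F0, and none was lower, where 30.8% of all genes tested were higher and 31.2% lower. The median log2 fold change was 0.70, beside -0.0017 over all genes tested. The excess in B16F10 was 4.86-fold for Etv5, 3.51-fold for Etv4, 2.90-fold for Spry4 and 2.43-fold for Spry2, and between 1.26-fold and 1.74-fold for Spry1, Spred1, Spred2, Dusp6 and Dusp5. Dusp4 was the gene that was not called (log2 fold change -0.03, 95% interval -0.08 to 0.02, adjusted p = 0.34 by edgeR). With library totals in place of TMM scaling Dusp4 was called lower in B16F10 (-0.12). Without B16F10 control replicate 1, the difference in Dusp5 was 0.60 with an adjusted p of 0.054, against 0.0015 with all libraries and a range of 0.00083 to 0.054 over the alternatives.

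The calls with SX-682 differed from line to line, though Spred1 and Etv5 were lower in all 3 lines. In Melan-A, 6 of the 10 were higher with SX-682 (Dusp4, Dusp5, Dusp6, Spry1, Spry2 and Etv4), 2 were lower (Spred1 and Etv5) and 2 were not called (Spry4 and Spred2). Of all genes tested, 23.4% were higher and 24.7% lower in that comparison. In B16F0, 3 were higher (Dusp4, Spry1 and Etv4) and 7 were lower, against 25.1% higher and 25% lower of all genes tested. In B16F10, none was higher, 8 were lower, and Spry1 and Etv4 were not called, against 25.5% higher and 25.3% lower of all genes tested. The median log2 fold change of the 10 was 0.35 for Melan-A, -0.49 for B16F0 and -0.80 for B16F10, beside 0.00 over all genes in each line. Spry1 and Etv4 in B16F0 and Dusp5 in Melan-A were the rises nearest to the threshold, with adjusted p-values of 0.011, 0.012 and 0.010.

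**Figure D2:**
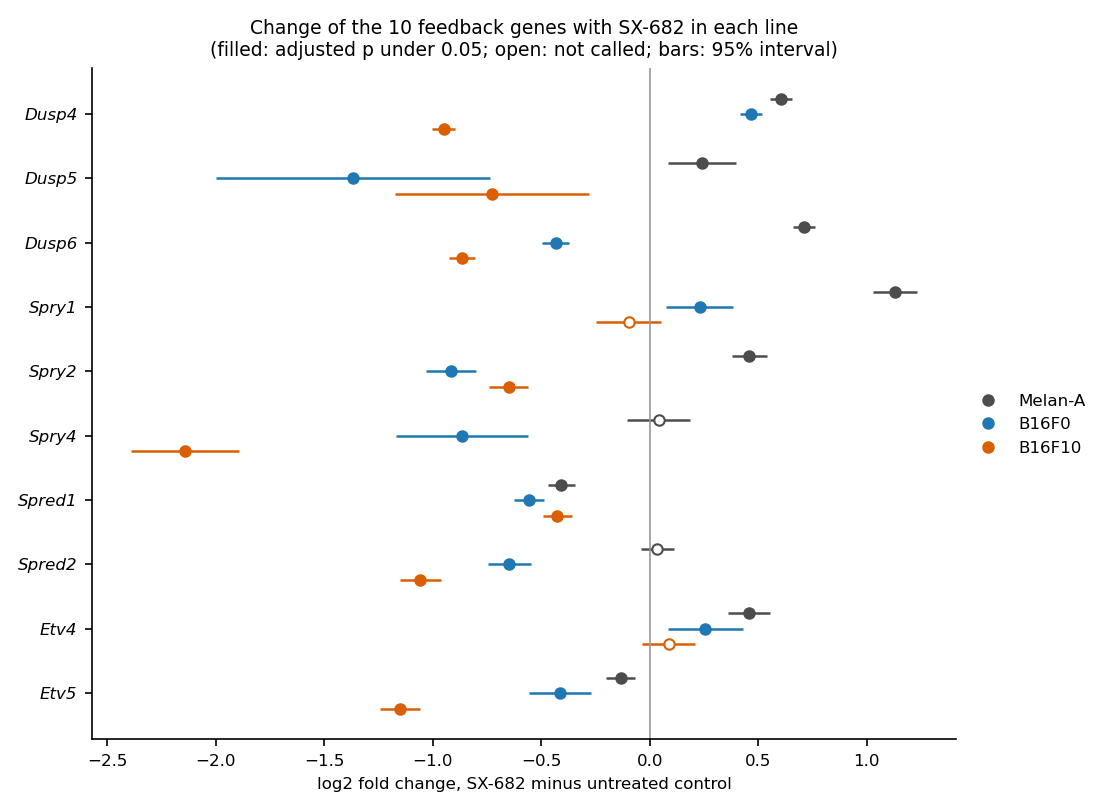
Log2 fold change of each feedback gene (rows) with SX-682 against the untreated control of the same line, with 95% intervals, in Melan-A (grey), B16F0 (blue) and B16F10 (orange), 2 libraries a group. Grey points lie mostly right of 0, up to 1.13 for Spry1, and orange points mostly left of 0, down to -2.14 for Spry4.

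Of the phosphatases, Dusp6 encodes a cytoplasmic phosphatase that acts on ERK in preference to other MAP kinases (ENSMUSG00000019960.8, chromosome 10, 99263231 to 99267489, plus strand, GRCm38). Its level was 262 and 267 CPM in the Melan-A controls and 435 and 431 CPM with SX-682. It stood at 86.2 and 83.6 CPM in the B16F0 controls and 62.9 and 62.9 CPM with SX-682. In B16F10 the controls had 128 and 128 CPM and the SX-682 libraries 70.5 and 70.4 CPM. Dusp6 thus rose 1.64-fold with SX-682 in Melan-A (log2 fold change 0.71, SE 0.025, adjusted p = 6.6e-20) and fell in both B16 lines, by 0.43 on the log2 scale in B16F0 (SE 0.030, adjusted p = 2.6e-13) and by 0.86 in B16F10 (SE 0.029, adjusted p = 8.0e-21). In no line did the SX-682 libraries overlap the controls, and the B16 libraries of either treatment all lay under the Melan-A controls.

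Dusp4 encodes a nuclear phosphatase of ERK and other MAP kinases (ENSMUSG00000031530.6, chromosome 8, 34807297 to 34819894, plus strand). It was measured at 286 and 289 CPM in the Melan-A controls and 436 and 438 CPM with SX-682. The B16F0 controls had 195 and 193 CPM and the SX-682 libraries 266 and 270 CPM. In B16F10 the controls, at 188 and 193 CPM, were level with those of B16F0, but the SX-682 libraries had 99.2 and 97.7 CPM. Dusp4 was the only gene of the 10 that was called in opposite directions in the 2 B16 lines: it rose in Melan-A (0.61, SE 0.024, adjusted p = 9.9e-19) and in B16F0 (0.47, SE 0.025, adjusted p = 8.0e-16) and fell by 0.95 in B16F10 (SE 0.026, adjusted p = 1.0e-22). The change in B16F10 was lower than that in B16F0 by 1.42 on the log2 scale (SE 0.036, adjusted p = 4.1e-22).

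Dusp5 encodes a nuclear phosphatase specific for ERK (ENSMUSG00000034765.6, chromosome 19, 53529109 to 53542431, plus strand). It was well expressed only in Melan-A, at 23.3 and 24.7 CPM in the controls and 27.2 and 29.5 CPM with SX-682. In B16F0 it had 0.614 and 0.565 CPM in the controls (46 and 38 counts) and 0.258 and 0.187 CPM with SX-682 (17 and 9 counts). In B16F10 it had 1.17 and 0.892 CPM in the controls (71 and 57 counts) and 0.660 and 0.581 CPM with SX-682 (40 and 34 counts). The changes were a rise of 0.24 in Melan-A (SE 0.077, adjusted p = 0.010), a fall of 1.37 in B16F0 (SE 0.309, adjusted p = 0.00042) and a fall of 0.73 in B16F10 (SE 0.218, adjusted p = 0.0058), and the low counts in the B16 lines gave wide intervals. The rise in Melan-A had an adjusted p of 0.098 without control replicate 1 (0.21) and 0.17 without SX-682 replicate 2 (0.19), with a range of 0.0011 to 0.17 over the alternatives. The fall in B16F10 had an adjusted p of 0.12 without control replicate 1 (-0.52), 0.057 without SX-682 replicate 2 (-0.64) and 0.053 in a fit of the 2 groups alone, with a range of 0.0031 to 0.12. An antisense gene, AC137853.2, shares 22.1% of the exon bases of Dusp5; it had 0 to 18 counts per library, and since it is not known whether the counting used strand, reads from the 2 genes may not be fully separated.

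**Figure D3:**
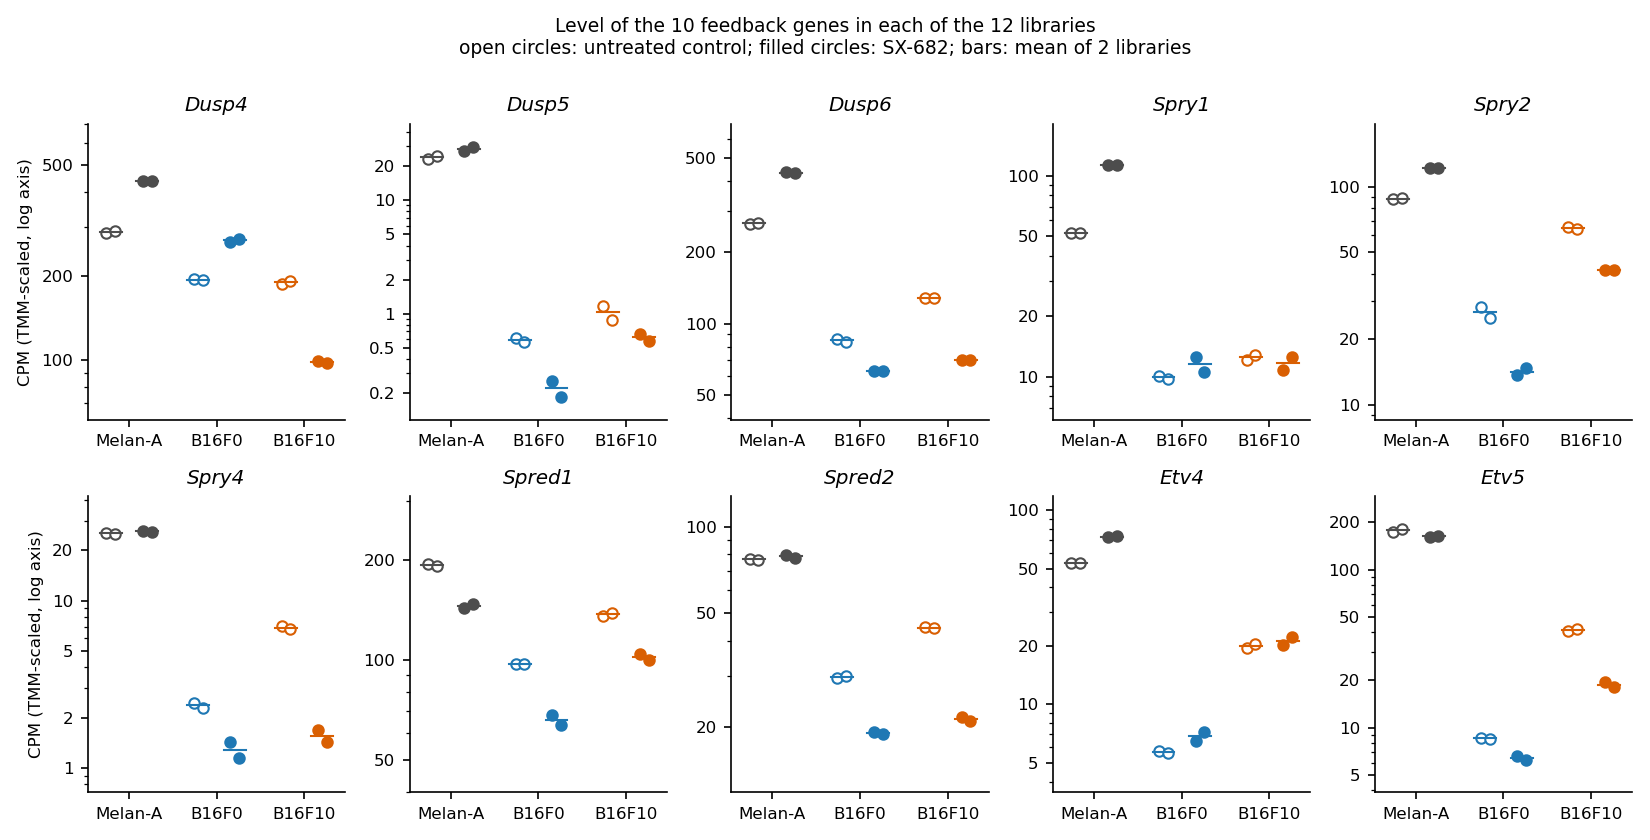
CPM of each of the 10 feedback genes in the 12 libraries on log axes, 1 panel a gene, with untreated controls as open circles, SX-682 as filled circles and the mean of 2 libraries as a bar. The Melan-A controls (grey) lie above the B16F0 (blue) and B16F10 (orange) controls in every panel, and Dusp6 is the clearest case of filled circles above the open ones in Melan-A and under them in both B16 lines.

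Sprouty proteins are membrane-associated inhibitors that block signalling between growth factor receptors and RAF. Spry2 (ENSMUSG00000022114.5, chromosome 14, 105891947 to 105896819, minus strand) had 87.9 and 88.8 CPM in the Melan-A controls and 122 and 121 CPM with SX-682. In B16F0 it went from 28.2 and 25.1 CPM to 13.7 and 14.7 CPM, and in B16F10 from 65.6 and 64.3 CPM to 41.4 and 41.4 CPM. It rose in Melan-A (0.46, SE 0.039, adjusted p = 2.5e-11) and fell by 0.92 in B16F0 (SE 0.055, adjusted p = 1.6e-14) and by 0.65 in B16F10 (SE 0.044, adjusted p = 1.5e-13). The controls and SX-682 libraries did not overlap in any line.

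Spry4 (ENSMUSG00000024427.7, chromosome 18, 38586247 to 38601415, minus strand) showed the largest change of any feedback gene with SX-682, in B16F10. There its controls had 7.06 and 6.73 CPM (427 and 430 counts) and its SX-682 libraries 1.68 and 1.44 CPM (102 and 84 counts), a 4.41-fold fall (log2 fold change -2.14, SE 0.121, adjusted p = 2.2e-15). In B16F0 it went from 2.46 and 2.29 CPM to 1.43 and 1.14 CPM, a 1.82-fold fall (-0.87, SE 0.148, adjusted p = 1.2e-05). After SX-682 the mean levels of the 2 B16 lines, 1.28 CPM in B16F0 and 1.56 CPM in B16F10, lay closer together than those of the controls, 2.37 and 6.89 CPM. In Melan-A the level was 25.2 and 25.1 CPM in the controls and 26.2 and 25.6 CPM with SX-682, with a log2 fold change of 0.04 and a 95% interval of -0.10 to 0.19 (adjusted p = 0.68 by edgeR).

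Spry1 (ENSMUSG00000037211.12, chromosome 3, 37639947 to 37644598, plus strand) had the largest rise in Melan-A. Its level there was 51.7 and 52.0 CPM in the controls and 113 and 114 CPM with SX-682, a 2.19-fold rise (1.13, SE 0.050, adjusted p = 1.1e-17). In the B16 lines Spry1 was low and moved little: the B16F0 controls had 10.1 and 9.74 CPM and the SX-682 libraries 12.5 and 10.6 CPM, while the B16F10 controls had 12.1 and 12.8 CPM and the SX-682 libraries 10.8 and 12.5 CPM. The B16F0 rise of 0.23 (SE 0.076) had an adjusted p of 0.011, and the B16F10 libraries overlapped (-0.10, 95% interval -0.25 to 0.05, adjusted p = 0.29). The B16F0 rise was lost without control replicate 2 (0.21, adjusted p = 0.071) and without SX-682 replicate 1 (0.09, adjusted p = 0.45), with a range of 0.00078 to 0.45 over the alternatives. The unclassified gene Gm42922 on the opposite strand shares 24.4% of the exon bases of Spry1 and had 3 to 20 counts per library, and here too the handling of strand is not known.

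Spred proteins bind the RAS GTPase-activating protein neurofibromin and bring it to the membrane, where it switches RAS off. Spred1 (ENSMUSG00000027351.14, chromosome 2, 117121374 to 117182279, plus strand) had 194 and 191 CPM in the Melan-A controls and 143 and 147 CPM with SX-682. In B16F0 it had 97.3 and 97.3 CPM in the controls and 68.3 and 63.8 CPM with SX-682, and in B16F10 136 and 138 CPM in the controls and 104 and 99.6 CPM with SX-682. It fell in all 3 lines by nearly the same amount, by 0.41 in Melan-A (SE 0.031, adjusted p = 2.5e-12), 0.56 in B16F0 (SE 0.034, adjusted p = 2.7e-14) and 0.43 in B16F10 (SE 0.033, adjusted p = 2.4e-12). Its range over the lines, 0.15, was the smallest of the 10 genes, and the test of a difference among the lines gave an adjusted p of 0.018. Without B16F0 SX-682 replicate 2 that p was 0.15, with a range of 0.0016 to 0.15 over the alternatives. Between B16F10 and Melan-A the difference in change was -0.02, with a 95% interval of -0.11 to 0.07 (adjusted p = 0.82 by edgeR).

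Spred2 (ENSMUSG00000045671.17, chromosome 11, 19924375 to 20024026, plus strand) fell in the B16 lines. The level went from 29.6 and 30.1 CPM to 19.2 and 18.9 CPM in B16F0 (-0.65, SE 0.048, adjusted p = 1.6e-12), and from 44.5 and 44.3 CPM to 21.7 and 20.9 CPM in B16F10 (-1.06, SE 0.046, adjusted p = 4.2e-18). In Melan-A the controls had 77.0 and 76.6 CPM and the SX-682 libraries 79.7 and 77.8 CPM, with a log2 fold change of 0.04 and a 95% interval of -0.04 to 0.11 (adjusted p = 0.47 by edgeR). Spred1 fell in every line and Spred2 in the B16 lines, and the change of one gene was not tested against that of the other.

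Etv4 and Etv5 are close paralogues of the PEA3 group that activate transcription at ETS sites. Etv5 (ENSMUSG00000013089.15, chromosome 16, 22381309 to 22439719, minus strand) had 174 and 182 CPM in the Melan-A controls and 161 and 163 CPM with SX-682. In B16F0 it was far lower, at 8.62 and 8.48 CPM in the controls and 6.59 and 6.21 CPM with SX-682, and in B16F10 intermediate, at 41.0 and 42.1 CPM in the controls and 19.3 and 18.1 CPM with SX-682. Etv5 fell in all 3 lines, but to unequal extents: by 0.13 in Melan-A (SE 0.033, adjusted p = 0.0011), 0.41 in B16F0 (SE 0.070, adjusted p = 1.1e-05) and 1.15 in B16F10 (SE 0.046, adjusted p = 6.0e-19).

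Etv4 (ENSMUSG00000017724.14, chromosome 11, 101769742 to 101785371, minus strand) did not follow Etv5. It had 53.4 and 53.3 CPM in the Melan-A controls and 72.8 and 73.6 CPM with SX-682, a rise of 0.46 (SE 0.048, adjusted p = 2.0e-09). In B16F0 it had 5.75 and 5.64 CPM in the controls and 6.45 and 7.25 CPM with SX-682 (0.26, SE 0.084, adjusted p = 0.012). In B16F10 the controls, at 19.6 and 20.4 CPM, overlapped the SX-682 libraries, at 20.2 and 22.3 CPM (0.09, 95% interval -0.03 to 0.21, adjusted p = 0.24). The B16F0 rise was lost without control replicate 2 (0.24, adjusted p = 0.063) and without SX-682 replicate 2 (0.18, adjusted p = 0.15), with a range of 0.0051 to 0.15 over the alternatives.

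Per kilobase, the order of the genes was similar among the lines at its top and differed further down. Dusp4 was the highest of the 10 in every group, at 105 ± 0.910 RPKM in Melan-A controls (SD, n = 2), 70.8 ± 0.497 in B16F0 controls and 69.4 ± 1.30 in B16F10 controls, and Dusp6 was next, at 84.5 ± 1.02, 27.1 ± 0.571 and 40.9 ± 0.108 RPKM. In Melan-A controls Etv5 (43.4 ± 1.30 RPKM) and Spry2 (42.3 ± 0.275 RPKM) followed, and their libraries overlapped. In B16F0 controls Etv5, at 2.08 ± 0.0253 RPKM, stood in place 7 of 10, and in B16F10 controls, at 10.1 ± 0.188 RPKM, in place 5. Dusp5 and Spry4 were the lowest of the 10 in every group, with Dusp5 at 9.70 ± 0.406 RPKM and Spry4 at 5.30 ± 0.0143 RPKM in Melan-A controls. In the B16F0 and B16F10 controls this order was turned, with Spry4 at 0.499 ± 0.0247 and 1.45 ± 0.0496 RPKM and Dusp5 at 0.238 ± 0.0140 and 0.418 ± 0.0807 RPKM.

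A call in one line and not in another does not show that the lines differ, so the difference of the changes was tested. The change with SX-682 differed among the 3 lines for all 10 feedback genes, where 47.4% of all genes tested differed. Against Melan-A, the change in B16F0 was lower for 9 of the 10 (34.4% of all genes tested differed in either direction), and Etv4 was not called (-0.20, 95% interval -0.40 to -0.0025, adjusted p = 0.12 by edgeR). The change in B16F10 was lower than in Melan-A for 9 of the 10 as well (33.8% of all genes tested differed), with Spred1 the gene that was not called. The largest differences from Melan-A were -2.18 for Spry4 in B16F10 (SE 0.142), -1.61 for Dusp5 in B16F0 (SE 0.317), and -1.57 for Dusp6 (SE 0.038) and -1.55 for Dusp4 (SE 0.036) in B16F10. Both contrasts share the Melan-A libraries. For Spred1, the lower change in B16F0 than in Melan-A (-0.15, adjusted p = 0.012) was lost without Melan-A SX-682 replicate 2 (-0.14, adjusted p = 0.053) and without B16F0 SX-682 replicate 2 (-0.11, adjusted p = 0.074), within a range of 0.00085 to 0.074, and without the latter library Etv4 was called (-0.29, adjusted p = 0.042, within a range of 0.042 to 0.51).

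Between the B16 lines, the change in B16F10 was lower than that in B16F0 for 6 of the 10 (Dusp4, Dusp6, Spry1, Spry4, Spred2 and Etv5) and higher, that is less negative, for Spry2 (0.27, SE 0.071, adjusted p = 0.0043) and Spred1 (0.13, SE 0.047, adjusted p = 0.038), where 30.3% of all genes tested differed. Dusp5 (0.64, 95% interval -0.16 to 1.44) and Etv4 (-0.17, 95% interval -0.38 to 0.04) were not called. The call for Spred1 was lost in 13 of 20 alternatives, among them DESeq2, and adjusted p-values ranged from 0.0065 to 0.26. That for Spry2 was lost without B16F0 control replicate 1 (0.17, adjusted p = 0.082) and without B16F0 SX-682 replicate 1 (0.20, adjusted p = 0.070), within a range of 0.00040 to 0.082. That for Spry1 was lost without B16F0 control replicate 2 (-0.31, adjusted p = 0.056), B16F0 SX-682 replicate 1 (-0.20, adjusted p = 0.23), B16F10 control replicate 2 (-0.29, adjusted p = 0.073) or B16F10 SX-682 replicate 1 (-0.23, adjusted p = 0.13), within a range of 0.0014 to 0.23.

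The genes fell into few patterns over the lines. Dusp5, Dusp6 and Spry2 were higher with SX-682 in Melan-A and lower in both B16 lines, a pattern shown by 260 of 18338 genes tested (1.42%). Spred1 and Etv5 were lower in all 3 lines, as were 11.7% of all genes tested, and none of the 10 was higher in all 3 lines, where 11.3% of all genes were. The 2 Melan-A calls that were not made, for Spry4 and Spred2, belonged to genes that were lower in both B16 lines, so that 7 of the 10 were lower in both, beside 17.2% of all genes tested. The control libraries from which the untreated levels were taken also enter the change with SX-682, so the levels and the changes of a gene are not independent.

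The sequence before the start site was examined for 7 of the 10 genes, using 8 windows of RefSeq on GRCm38.p6 that run from 250 bases before to 50 bases after a start. The letters GGAA, the core of the sites that Etv4, Etv5 and other ETS factors bind, were found on either strand in 7 of the 8 windows and in 95.98% of all 32851 promoters of the same length. A longer ETS site (CCGGAAGT, in 3.89% of all promoters), the AP-1 site TGACTCA (5.2%), the E-box CACGTG (7.15%) and the cyclic AMP response site TGACGTCA (1.79%) were found in none of the 8, on either strand. The longer ETS site contains the core, so its matches are also core matches. These are matches of letters within the windows and do not show binding.

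The 250 bases before the start are shown for 3 genes, 5′ to 3′ on the strand of the gene, with the ETS core in capitals (GGAA, or TTCC where it lies on the other strand). Dusp6 and Spry2 are shown because they rose in Melan-A and fell in both B16 lines, and Spred1 because it fell in all 3. Dusp6 lies at chr10:99262981-99263230 on the plus strand, Spry2 at chr14:105896820-105897069 on the minus strand and Spred1 at chr2:117120821-117121070 on the plus strand. The Spred1 stretch ends short of the gene start given above, 117121374, and does not adjoin it.
Dusp6: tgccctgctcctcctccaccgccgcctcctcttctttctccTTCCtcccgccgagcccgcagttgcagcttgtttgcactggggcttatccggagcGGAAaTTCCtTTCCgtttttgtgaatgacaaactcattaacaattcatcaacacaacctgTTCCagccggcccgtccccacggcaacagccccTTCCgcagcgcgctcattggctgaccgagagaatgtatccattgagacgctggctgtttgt
Spry2: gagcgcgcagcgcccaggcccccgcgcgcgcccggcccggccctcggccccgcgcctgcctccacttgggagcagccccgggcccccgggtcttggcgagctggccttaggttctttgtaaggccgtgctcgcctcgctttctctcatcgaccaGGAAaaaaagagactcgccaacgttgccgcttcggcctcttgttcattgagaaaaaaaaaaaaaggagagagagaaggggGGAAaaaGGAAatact
Spred1: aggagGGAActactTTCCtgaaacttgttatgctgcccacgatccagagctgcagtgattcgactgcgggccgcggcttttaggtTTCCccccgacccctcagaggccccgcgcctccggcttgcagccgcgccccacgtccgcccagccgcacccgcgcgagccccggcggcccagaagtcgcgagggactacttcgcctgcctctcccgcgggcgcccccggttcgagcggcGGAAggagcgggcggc
Dusp6 holds the core 6 times in these bases, Spry2 3 times and Spred1 4 times, where the median over all promoters was 3 and the range from the 5th to the 95th percentile 0 to 6. The 3 stretches had 56.4%, 62.4% and 70.8% G and C, above the 52.4% of the median promoter. Of the windows not shown, those of Spred2, Dusp5 and Spry1 held the core 7, 3 and 1 times in the 250 bases, and the 2 windows of Etv5 held it 0 and 4 times. Of these 250 bases, 67 for Spred2, 36 for Dusp5, and 149 and 250 for Etv5 lie inside the gene bounds given above.

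Other genes of the pathway were counted in lists by role, to set the 10 beside them. Over all genes tested, 23.4% were higher and 24.7% lower with SX-682 in Melan-A. The shares were 25.1% and 25% in B16F0, and 25.5% and 25.3% in B16F10. Of 17 genes of the cascade from RAS to ERK, 3 were higher and 6 lower with SX-682 in Melan-A, 7 and 7 in B16F0, and 7 and 4 in B16F10. Braf, which encodes a RAF kinase, was higher in all 3 lines (0.29, 0.82 and 0.71). Of 7 other MAP kinase phosphatases, 2 were higher and 2 lower in Melan-A, 7 and none in B16F0, and 4 and 2 in B16F10. Dusp8, which acts mainly on the stress-activated kinases JNK and p38, went against Dusp6 in each line, at -0.70 for Melan-A, 1.04 for B16F0 and 0.51 for B16F10. Of 7 relatives of the 10 and other feedback inhibitors, 6 were tested, with 3 higher and 1 lower in Melan-A, 4 and 1 in B16F0, and 3 and 1 in B16F10. Spred3, the third Spred gene, was higher in all 3 lines (0.36, 0.58 and 0.60), in contrast to Spred1. The call in Melan-A for Spred3 was lost without SX-682 replicate 2 (0.22, adjusted p = 0.10 within a range of 6.0e-05 to 0.10). Of 7 RAS GTPase-activating proteins, 3 were higher and 1 lower in Melan-A, 3 and 4 in B16F0, and 1 and 4 in B16F10. Of 8 transcription factors that act at ERK targets, 3 were higher and 2 lower in Melan-A, 6 and 2 in B16F0, and 5 and 1 in B16F10.

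**Figure D4:**
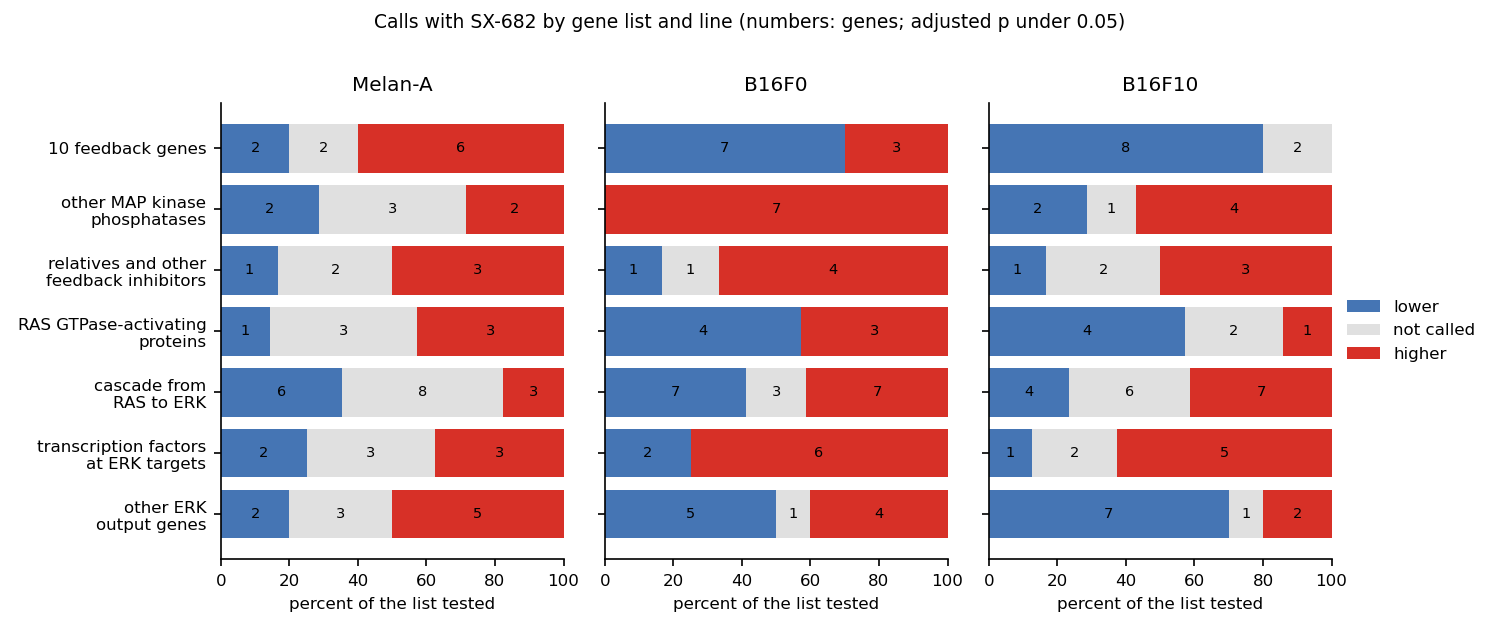
Share of each gene list called lower (blue), not called (grey) or higher (red) with SX-682, in 1 panel for each line; the numbers in the bars are genes. The 10 feedback genes go from 6 higher in Melan-A to none higher and 8 lower in B16F10, and the other MAP kinase phosphatases are all 7 higher in B16F0. Over all genes tested, 23.4% to 25.5% were higher and 24.7% to 25.3% lower, depending on the line.

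Of 10 further genes induced by ERK signalling, 5 were higher and 2 lower with SX-682 in Melan-A, 4 and 5 in B16F0, and 2 and 7 in B16F10. The shares over all genes tested are those given above for each line. Egr1, an immediate early transcription factor, had 243 and 254 CPM in the Melan-A controls and 638 and 644 CPM with SX-682, but 3.62 and 3.58 CPM in the B16F0 controls and 1.15 and 0.935 CPM with SX-682, and 16.1 and 17.5 CPM in the B16F10 controls and 2.69 and 3.54 CPM with SX-682. Its changes of 1.36, -1.76 and -2.44 thus went the same way as those of Dusp6 in each line. Ier3 did so too (0.78, -0.73 and -0.29), while Fos, at 0.55 for Melan-A, 0.47 for B16F0 and -1.94 for B16F10, went the way of Dusp4. Ccnd1, which encodes cyclin D1, was lower in all 3 lines (-0.56, -0.79 and -1.11), as Spred1 and Etv5 were. Myc was called in all 3 lines, and its log2 fold changes spanned a range of 1.07 over them. Its weakest call was a small fall in B16F0 (-0.11, adjusted p = 0.020 by edgeR). That call was lost in 5 of 21 alternatives, among them DESeq2, RLE scaling and a threshold of 0.01. The B16F0 change was -0.09 without B16F0 control replicate 1 and -0.05 without B16F0 SX-682 replicate 1, both also among the 5.

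**Figure D5:**
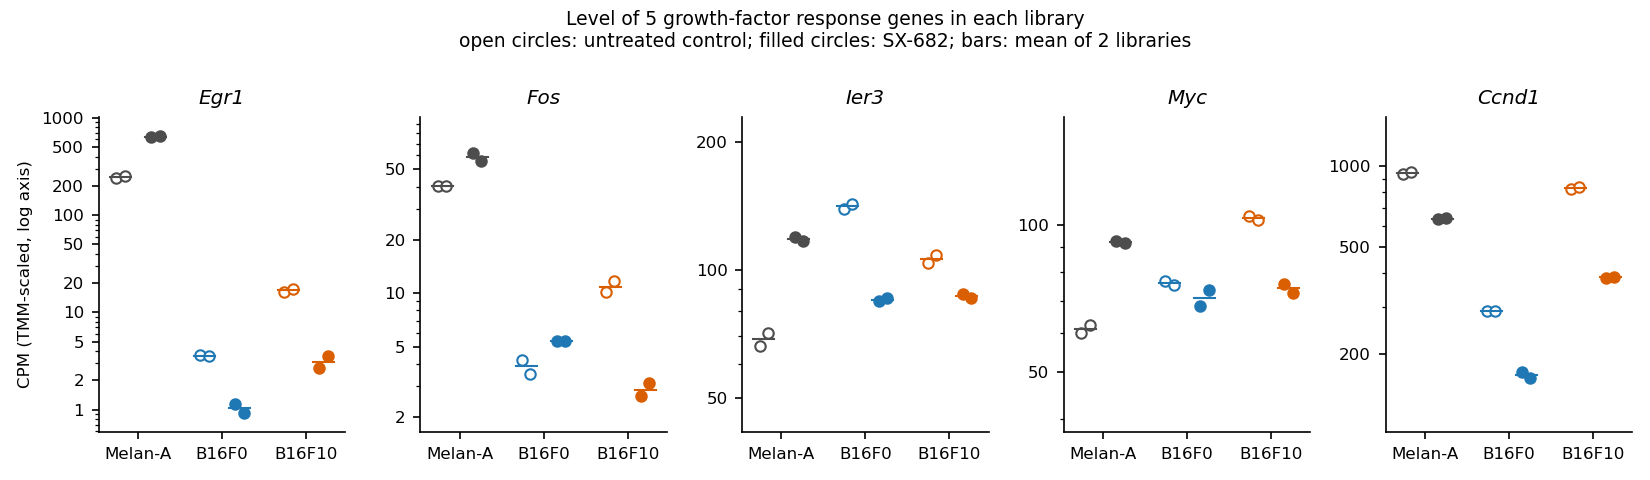
CPM of Egr1, Fos, Ier3, Myc and Ccnd1 in the 12 libraries on log axes, with untreated controls as open circles, SX-682 as filled circles and the mean of 2 libraries as a bar. Egr1 rises in Melan-A (grey) from 249 to 641 CPM on average and falls in B16F0 (blue) from 3.60 to 1.04 and in B16F10 (orange) from 16.8 to 3.11.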

How the data were processed

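The authors deposited raw counts of reads per gene for the 12 libraries, and the submitters' processing notes name cutadapt, STAR, DESeq2 and the mouse build mm10; the counting program and its use of strand are not given in the sources used here. Of 34513 identifiers with their version, 33821 are in GENCODE M21, with the same coordinates. Rows without a gene name, if any, held 0 counts. The 12 libraries were grouped by their labels and fitted together in edgeR 4.0.16 (R 4.3.3), with TMM scaling, the filterByExpr filter, a mean for each of the 6 groups, no block, Benjamini-Hochberg adjustment and 0.125 as prior count. Residual degrees of freedom were 6 and prior degrees of freedom 21.9, and SEs came from the F statistic. Replicates differed by more than counting noise (chi-square per gene 2.87 to 5.25). A floor of 3 counts was 0.033 to 0.062 CPM; it covers counting error only. RPKM used the table's gene lengths. The fit was tested on simulated data. Alternatives were DESeq2 1.42.0, RLE scaling, library totals, 2 other filters, a replicate block, the compared groups alone, a prior count of 2, a threshold of 0.01 and each library left out. The 10 genes and the lists of other genes and markers were chosen with earlier results of these data known. Besides the 10, the text names at most 3 genes of a list, those with the smallest worst adjusted p over the lines, and Dusp1, Fos, Egr1, Myc, Ccnd1, Mapk3, Braf and Nras. A gene that this rule also covers is not reported here. Spry3 and Adgre1 were not analysed here.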

Additional observations from a re-analysis of the deposited data

Results flagged for a closer look

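The change with SX-682 differed among the 3 lines for each of the 10 feedback genes in a test of the difference itself (edgeR's F-test with 2 degrees of freedom, adjusted p under 0.05, as for 47.4% of all genes tested), and the values here are the range of the log2 fold change over the 3 lines. The range was 2.18 for Spry4, 1.61 for Dusp5, 1.57 for Dusp6, 1.55 for Dusp4, 1.38 for Spry2, 1.23 for Spry1, 1.09 for Spred2, 1.02 for Etv5, 0.37 for Etv4 and 0.15 for Spred1. Spry4 spanned the most because of its fall in B16F10, and Spred1 the least, its call being lost without 1 library of B16F0 with SX-682, replicate 2 (adjusted p = 0.15, within a range of 0.0016 to 0.15).

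The same test was passed by 20 of the 24 other genes that were named by rule; most of these were picked for small adjusted p-values in the lines, so this count is not comparable with the share over all genes. Among the genes induced by ERK, the range was 3.80 for Egr1, 2.48 for Fos, 1.51 for Ier3, 1.07 for Myc and 0.54 for Ccnd1. Among the other phosphatases it was 1.75 for Dusp8, 0.98 for Dusp1, 0.79 for Dusp10 and 0.60 for Dusp16. Among the other feedback inhibitors it was 0.91 for Rasa4 and 0.56 for Il17rd. In the cascade it was 0.53 for Braf, 0.44 for Mapk3, 0.20 for Nras and 0.15 for Ptpn11. Among the RAS GTPase-activating proteins it was 0.40 for Rasa1 and 0.25 for Dab2ip, and among the transcription factors 0.48 for Ets2, 0.17 for Elk3 and 0.16 for Ets1.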

How the results depend on the processing

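The 100 results for the 10 feedback genes were recomputed under the alternatives, and of the 2050 values so obtained 2010 kept their direction and their side of the threshold, while 38 lost the call, 2 gained it and none reversed; for the other named genes, 4861 of 4944 values kept both, 35 lost the call, 44 gained it and 4 reversed. Part of this agreement was bound to occur. A prior count of 2 alters the fold changes and not the p-values, and a threshold of 0.01 reuses the main fit. Leaving out a library of a group outside a comparison acts on it mainly through the pooled spread and the scaling. The number of feedback genes higher in B16F0 with SX-682, 3, was 1 at a threshold of 0.01 and 1 to 3 with a library left out. The number with a higher change in B16F10 than in B16F0, 2, was 1 at 0.01, with DESeq2, RLE scaling, no filter or at least 10 counts in every library, and 0 to 2 with a library left out; it was 0 without B16F0 control replicate 1. With library totals, 1 gene rather than none was lower in untreated B16F10 than in untreated B16F0 (Dusp4, -0.12). The untreated differences of Nras (-0.062), Ptpn11 (-0.017) and Mapk3 (-0.0091) between B16F10 and Melan-A reversed in sign, as did that of Ets1 (-0.011) between B16F10 and B16F0. None of these 4 was called with library totals (adjusted p = 0.089, 0.57, 0.81 and 0.72 by edgeR). That scaling moved the median of all genes by -0.19 in B16F10 against Melan-A and by -0.093 in the other untreated comparisons. The cause of these changes was not tested, except that leaving out a library leaves fewer samples. Dusp5 has no value with at least 10 counts in every library, since 1 library had 9. The deviations of same-numbered control and SX-682 libraries were nearly uncorrelated across genes in each line (correlations of 0.0011, 0.022 and 0.0098). Counting noise in low genes also lowers such a correlation, so it cannot exclude that the libraries were paired. With a replicate block 8 feedback genes were called in Melan-A, 10 in B16F0, and 8 again in B16F10, as without it. Depth limits mainly Dusp5 and Spry4 in the B16 lines.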
